A study of Mus musculus with 14 samples.

Results

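Hepatokines are proteins that hepatocytes secrete into the blood and that act on glucose and lipid metabolism in the liver itself, fat, muscle, brain or the vessel wall. The transcripts of 9 of them were examined in the liver of diabetic mice given indole or vehicle: *Fgf21*, *Gdf15*, *Ahsg*, *Fetub*, *Angptl4*, *Angptl6*, *Angptl8*, *Selenop* and *Lect2*. They were found by gene name among the 55487 genes of the deposited counts table, and each name matched a single gene. A total of 8 passed the filter on low counts that left 12653 genes for testing. *Fgf21* did not pass it and is described from its reads.

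The mice were male TALLYHO mice, an inbred polygenic model of type 2 diabetes in which the males become hyperglycaemic, so both groups carried the same diabetic background and no transgene. A total of 7 mice received 20 mg/kg indole, a product of bacterial tryptophan breakdown, and 7 received its vehicle, water, both by oral gavage 2 times per day for 7 days. The animals also went through metabolic tests with further doses before the right liver lobe was taken. There was no lean or untreated group. The comparison asks how the liver transcriptome differs after sub-chronic indole, and here how far the secreted signals of the liver take part in that difference.

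The known roles of these proteins differ. FGF21 and GDF15 are hormones of nutrient and cell stress: FGF21 acts through the co-receptor β-klotho, and GDF15 acts through GFRAL in the hindbrain to curb appetite. ANGPTL4 and ANGPTL8 inhibit lipoprotein lipase, whereas ANGPTL6 has been tied to energy expenditure and insulin sensitivity. Fetuin-A (*Ahsg*) inhibits the insulin receptor, fetuin-B (*Fetub*) is its close relative, selenoprotein P (*Selenop*) carries selenium to other tissues, and LECT2 is a hepatocyte factor raised in fatty liver.

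The libraries held 15197498 to 21060376 counted reads, with medians of 18117524 (vehicle) and 17740715 (indole). Hepatocyte markers took up the bulk of the marker signal, with a summed level of 81729 to 103242 CPM (read counts relative to the size of the library, scaled with TMM factors) in vehicle-treated mice and 76332 to 110034 CPM in indole-treated mice. The 4 libraries G1 to G4 (2 vehicle, 2 indole) stood apart, with TMM factors of 1.07 to 1.08 against 0.931 to 1.004 in G5 to G14. These 4 did not overlap the other 10 in 461 of the 12653 genes tested (3.64%). The labels name no batch, and both groups contribute mice to both sets of libraries. This bears on the hepatokines directly, since *Fetub* and *Angptl8* are among those genes, so values are also given with the library set as a term in the fit. No 2 libraries were alike enough to be 1 library deposited a second time.

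No difference between the groups passed the test for any of the 8 hepatokine transcripts tested: 0 had an unadjusted *p* below 0.05 in edgeR's quasi-likelihood test, against 482 of all genes tested (3.81%), of which 194 were higher (1.53%) and 288 lower (2.28%) after indole. *Lect2* and *Angptl6* were the 2 with a higher estimate in indole-treated mice, and the other 6 had a lower one. The log2 fold changes ran from −0.13 to 0.15 with SEs of 0.0720 to 0.243 and unadjusted *p* values from 0.181 to 0.923. Over all genes tested the median absolute log2 fold change was 0.0886. The 95% intervals of the folds together spanned 0.643 to 1.34, so changes beyond these bounds lay outside the interval of every hepatokine tested. In all 9 transcripts the values of both groups overlapped, as they did in all but 6 genes tested (0.0474%). Across all genes edgeR called 0 at an adjusted *p* below 0.05, as did DESeq2 with default settings (719 of 22535 genes at an unadjusted *p* below 0.05, 3.19%) and limma voom (564 unadjusted), whereas DESeq2 on the same genes as edgeR called 1 (532 unadjusted).

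**Figure D1:**
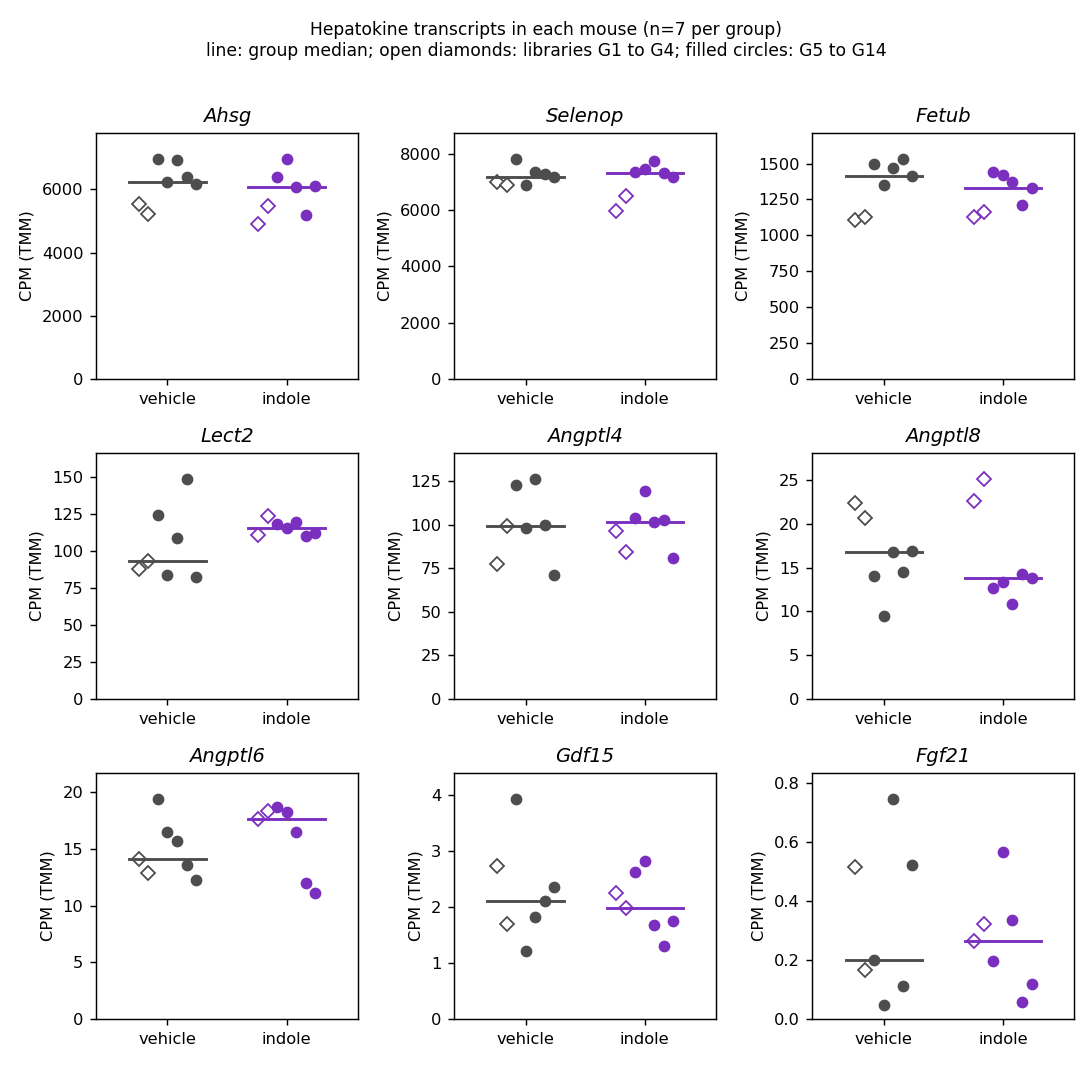
Level of each hepatokine transcript in each mouse, in CPM scaled with TMM factors on a linear axis from 0, for 7 vehicle-treated (grey) and 7 indole-treated (purple) mice, with the group median as a line and libraries G1 to G4 as open diamonds. The groups overlap in every panel, the open diamonds lie at the top for *Angptl8* (20.7 to 25.1 CPM) and at the bottom for *Fetub* (1104 to 1166 CPM), and the indole-treated mice lie close together for *Lect2* (111 to 124 CPM).

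**Figure D2:**
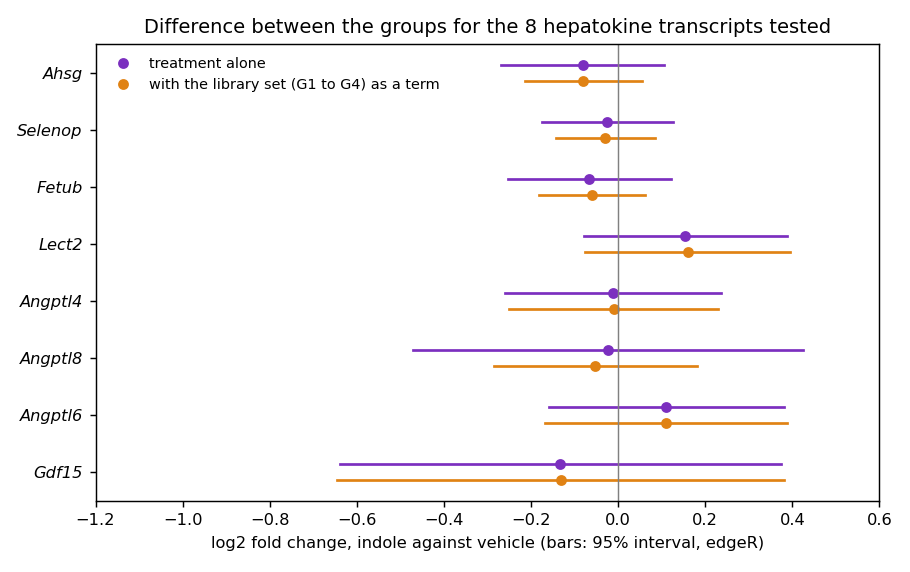
Log2 fold change of indole against vehicle (points) with its 95% interval (bars) from edgeR for the 8 transcripts tested, from the fit on treatment alone (purple) and from the fit with the library set G1 to G4 as a further term (orange). Every interval includes 0, and the interval of *Angptl8* shortens with the library set in the fit (SE 0.210 without it and 0.112 with it).

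The levels of the 9 transcripts differed widely. Per kilobase of gene length, the median over the 14 mice was 2798 CPM/kb for *Ahsg* and 2545 CPM/kb for *Selenop*, which ranked 20 and 25 among all genes by this measure. *Fetub* followed at 694, *Lect2* at 122 and *Angptl4* at 28.1 CPM/kb. *Angptl8* stood at 16.6, *Angptl6* at 10.1, *Gdf15* at 1.10 and *Fgf21* at 0.243 CPM/kb. Within a mouse, neighbours in this order kept it in 14 of 14 animals, except that *Ahsg* was above *Selenop* in 12 and *Angptl4* above *Angptl8* in 12. The first of these gaps was small, with a mean log2 ratio of 0.13±0.12 (SD, *n*=14). The fetuins, selenoprotein P and LECT2 were thus abundant liver messages in these mice, and both stress hormones were the lowest.

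**Figure D3:**
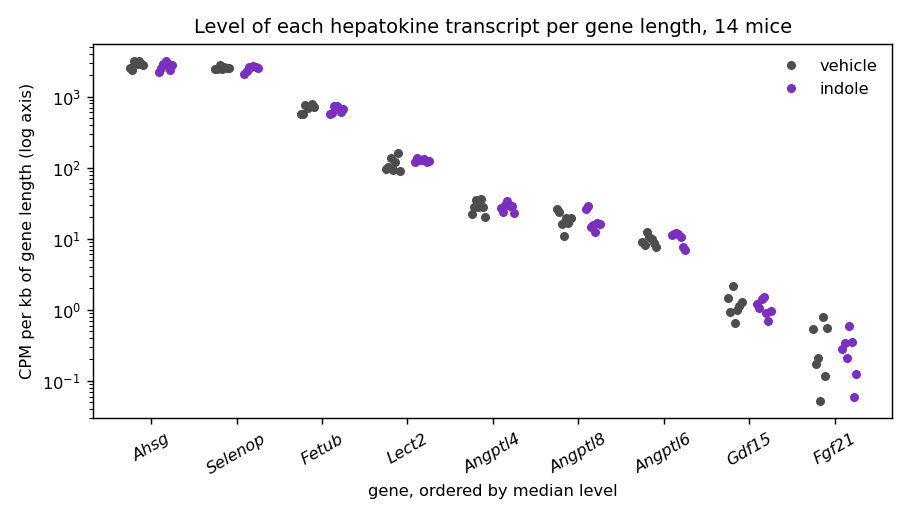
Level of each hepatokine transcript in CPM per kilobase of gene length (log axis), with 1 point per mouse, vehicle in grey and indole in purple, ordered by the median over 14 mice. The medians fall from 2798 CPM/kb for *Ahsg* to 0.243 CPM/kb for *Fgf21*, and the groups overlap at every gene.

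*Fgf21* (chr7:45613886-45615490, minus strand, GRCm38), a fasting and stress hormone, was close to silent in these livers. Vehicle-treated mice had 1 to 11 reads each, with a median of 3, and indole-treated mice 1 to 10, with a median of 5. High and low mice occurred in both groups. Pooled over each group, 41 vehicle reads gave 0.326 CPM without TMM scaling (exact binomial 95% interval 0.234 to 0.442) and 32 indole reads gave 0.264 (0.180 to 0.372), intervals that cover counting error only. In edgeR without the filter its log2 fold change was −0.29 (SE 0.579, 95% interval −1.47 to 0.88, unadjusted *p*=0.615), so a difference of 2 times in the downward direction lay inside the interval. Fewer cells that express a gene and less RNA per cell cannot be told apart in such whole-tissue libraries, for this and the other transcripts.

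The sequence before the start of *Fgf21* is shown because it holds, among the motifs searched, the C/EBP-ATF core TGATGNAA and the E-box CACGTG. The C/EBP-ATF core belongs to the stress response measured below. That of *Angptl8* is shown because it is the other hepatokine promoter with this core. The *Lect2* promoter is shown as that of the transcript with the largest estimated increase, and it held none of the 5 motifs. Each line gives the 250 bases before the transcript start from RefSeq (GRCm38.p6), written 5′ to 3′ on the strand of the gene, with matches to the motifs in capitals. The windows are chr7:45615491-45615740 (minus strand) for *Fgf21*, chr9:21835260-21835509 (plus strand) for *Angptl8* and chr13:56548539-56548788 (minus strand) for *Lect2*.
Fgf21: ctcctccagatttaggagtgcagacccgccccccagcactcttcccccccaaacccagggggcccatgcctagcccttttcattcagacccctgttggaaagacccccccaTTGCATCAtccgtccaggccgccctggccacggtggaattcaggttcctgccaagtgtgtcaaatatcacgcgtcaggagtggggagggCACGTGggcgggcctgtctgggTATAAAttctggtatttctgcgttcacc
Angptl8: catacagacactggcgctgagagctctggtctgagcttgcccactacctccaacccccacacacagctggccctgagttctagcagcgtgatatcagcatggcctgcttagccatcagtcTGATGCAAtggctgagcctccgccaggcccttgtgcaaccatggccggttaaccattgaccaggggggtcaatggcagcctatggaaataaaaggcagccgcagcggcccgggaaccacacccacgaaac
Lect2: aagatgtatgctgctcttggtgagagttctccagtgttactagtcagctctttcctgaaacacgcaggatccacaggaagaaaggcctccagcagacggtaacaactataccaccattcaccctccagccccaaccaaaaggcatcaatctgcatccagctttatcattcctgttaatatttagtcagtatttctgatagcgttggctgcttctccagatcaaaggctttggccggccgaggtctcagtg
In *Fgf21* the C/EBP-ATF core lay on the opposite strand at position −139 from the start, the E-box at −50 and a TATA box (TATAAA) at −28. In *Angptl8* the C/EBP-ATF core lay at −130. Both strands were searched for these 3 motifs, the forkhead core GTAAACA and the cyclic AMP element TGACGTCA, which do not overlap one another in these windows, over the 300 bases from 250 before to 50 after the start of 32851 promoters. The C/EBP-ATF core occurred in 3.97% of all promoters, the E-box in 7.15%, the forkhead core in 3.65%, the cyclic AMP element in 1.79% and the TATA box in 13.6%. Of the 9 hepatokines, 8 had a promoter in the table, 12 promoters in all, and *Angptl4* had none.

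*Gdf15* (chr8:70629393-70632456, minus strand), a hormone of mitochondrial and cell stress, was also scarce, with 25 to 59 reads in each vehicle-treated and 23 to 50 in each indole-treated mouse. Its level ran from 1.22 through a median of 2.10 to 3.94 CPM in vehicle-treated mice and from 1.30 through 1.98 to 2.83 CPM in indole-treated mice. The highest value belonged to the vehicle-treated mouse G6, and 3 of the 7 mice given indole exceeded the median of the vehicle group. The log2 fold change was −0.13 (SE 0.243, 95% interval −0.64 to 0.37, edgeR unadjusted *p*=0.591), and the two-sided exact permutation test, over every way to relabel the 14 animals, gave *p*=0.703. This was the widest interval of the 8, and it allowed a fold of 0.643 to 1.30. An E-box lay at −83 from 1 of its RefSeq starts. Of the 250 bases before that start, 196 lie in annotated *Gdf15* exons, and the bases before its outer start held none of the motifs.

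The integrated stress response, in which the factor ATF4 switches on *Fgf21*, *Gdf15* and genes of amino acid supply, was examined beside both hormones. Of 22 genes in its list 17 were tested, 8 with a higher and 9 with a lower estimate after indole, 0 of them at an unadjusted *p* below 0.05. Their median log2 fold change was −0.0049 (all genes tested 0.0042). *Cth*, the cystathionine lyase of cysteine synthesis and the most abundant member, had a median of 1464 CPM in vehicle-treated and 1306 CPM in indole-treated mice. *Atf4* itself had medians of 55.7 and 66.3 CPM (log2 fold change 0.14, SE 0.153, edgeR unadjusted *p*=0.376). The group ranges of both overlapped. Of the receptor genes for GDF15, *Gfral* had no read in any mouse and *Ret* had 3 reads in all. Those for FGF21 were measured: *Fgfr1*, *Fgfr2*, *Fgfr3* and *Fgfr4* passed the filter, with log2 fold changes of −0.0050 (SE 0.193), −0.19 (SE 0.105), −0.0151 (SE 0.1998) and −0.02 (SE 0.0705), none at an unadjusted *p* below 0.05 in edgeR. The co-receptor gene *Klb*, which encodes β-klotho, stood at a median of 41.6 CPM in vehicle-treated and 32.0 CPM in indole-treated mice. *Klb* had a log2 fold change of −0.19 (SE 0.106, edgeR unadjusted *p*=0.0889), and its level in 5 of the 7 mice given indole was under the whole vehicle range while 1 was over it.

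*Angptl4* (chr17:33773750-33781830, minus strand), the fasting-induced inhibitor of lipoprotein lipase, ran from 71.3 through a median of 99.4 to 126 CPM in vehicle-treated mice. In indole-treated mice it ran from 81.0 through 101 to 120 CPM. The indole values lay inside the vehicle range, and the vehicle-treated mice held both the lowest (G13) and the highest (G10). Between the groups the log2 fold change was −0.01 (SE 0.118, 95% interval −0.26 to 0.24, edgeR unadjusted *p*=0.923). The difference in mean log2 CPM had the opposite sign, 0.0042 (exact permutation *p*=0.976), so no direction is given for it.

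*Angptl8* (chr9:21835510-21837347, plus strand), a feeding-induced inhibitor of lipoprotein lipase, varied more between mice. It ran from 9.52 through a median of 16.8 to 22.4 CPM in vehicle-treated mice and from 10.9 through 13.8 to 25.1 CPM in indole-treated mice. The high values were those of 1 library set: G1 to G4 lay between 20.7 and 25.1 CPM, above the 9.52 to 17.0 CPM of the other 10 mice, with 2 mice of each group among the high values. The treatment log2 fold change was −0.02 (SE 0.210, 95% interval −0.47 to 0.42, edgeR unadjusted *p*=0.915, exact permutation *p*=0.847), and −0.05 (SE 0.112, 95% interval −0.29 to 0.18, unadjusted *p*=0.644) with the library set in the fit. Its pooled SD on the log2 scale (0.426) was larger than that of 96.6% of the 500 genes nearest to it in level. The gene lies within the span of *Dock6* on the opposite strand, which had 151 to 378 reads per mouse.

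*Angptl6* (chr9:20873808-20879727, minus strand) was the other hepatokine transcript with a higher estimate after indole. It ran from 12.3 through a median of 14.1 to 19.4 CPM in vehicle-treated mice and from 11.1 through 17.7 to 18.7 CPM in indole-treated mice. A total of 5 mice given indole exceeded the median of the vehicle group, and the other 2, G12 and G14, were under its whole range. The log2 fold change was 0.11 (SE 0.129, 95% interval −0.16 to 0.38, edgeR unadjusted *p*=0.401, exact permutation *p*=0.521). The estimate was larger in 1 library set. In G1 to G4 alone, with 2 mice per group, it was 0.42 (95% interval 0.10 to 0.74, edgeR unadjusted *p*=0.0143, adjusted *p*=0.497). In the other 10 it was −0.0092 (95% interval −0.36 to 0.34, unadjusted *p*=0.956). These intervals overlap, and the difference between the sets was not tested. With the library set in the fit the estimate was 0.11 (SE 0.132). The 3′ end of the gene overlaps *Shfl* on the opposite strand, which had 95 to 245 reads per mouse.

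The receptors, target lipases and cofactors through which hepatokines act were listed as their partners, 21 genes in all. Of the 14 partners tested, 7 had a higher and 7 a lower estimate, 0 had an unadjusted *p* below 0.05, and the median log2 fold change was 0.01. Those tested included the lipases *Lpl*, *Lipc* and *Lipg* and the insulin receptor gene *Insr*, the target of fetuin-A, with log2 fold changes of 0.19 (SE 0.384), 0.03 (SE 0.0815), 0.04 (SE 0.183) and −0.14 (SE 0.0783), in that order.

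The nutrient pathways known to act on *Angptl4*, *Angptl8* and *Fgf21* gave a mixed reading. Targets of PPARα, the fatty acid sensor that drives *Angptl4* and *Fgf21* in fasting, had 16 of 24 tested genes higher and 8 lower, with a median log2 fold change of 0.02. *Acaa1b*, a peroxisomal thiolase, was higher (0.27, SE 0.0929, edgeR unadjusted *p*=0.00866) and *Cpt1a*, the gate of mitochondrial fatty acid entry, was lower (−0.16, SE 0.0717, unadjusted *p*=0.0384), both at an adjusted *p* of 0.998. That of *Cpt1a* passed an unadjusted 0.05 no longer in 8 of the 14 fits that left out 1 mouse each (G1, G2, G3, G5, G6, G7, G8 or G11), with estimates from −0.19 to −0.14 over all 14 of them.

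Genes of lipid synthesis under insulin and LXR, the programme that also drives *Angptl8*, had a higher estimate in 16 of 17 tested, with a median log2 fold change of 0.16, and 1 had an unadjusted *p* below 0.05. This was *Thrsp*, a regulator of fatty acid synthesis, at medians of 966 CPM in vehicle-treated and 1387 CPM in indole-treated mice (0.45, SE 0.153, edgeR unadjusted *p*=0.00868, adjusted *p*=0.998). *Scd1*, the desaturase and most abundant of the list, ran from 1588 to 8818 CPM in vehicle-treated and from 1778 to 6394 CPM in indole-treated mice. The share of all genes with a higher estimate was 51.3%. The lipid synthesis genes share regulators, so their directions are not independent of one another. Their mean *z* score in each mouse overlapped between the groups, at −1.02 to 0.88 in vehicle-treated and −0.83 to 1.04 in indole-treated mice. The fasting genes under FoxO1 had 6 of 10 higher and 4 lower, 0 of them at an unadjusted *p* below 0.05, with a median log2 fold change of 0.0046; *Fbp1* of gluconeogenesis, the most abundant, had medians of 2222 and 2337 CPM in vehicle-treated and indole-treated mice.

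**Figure D4:**
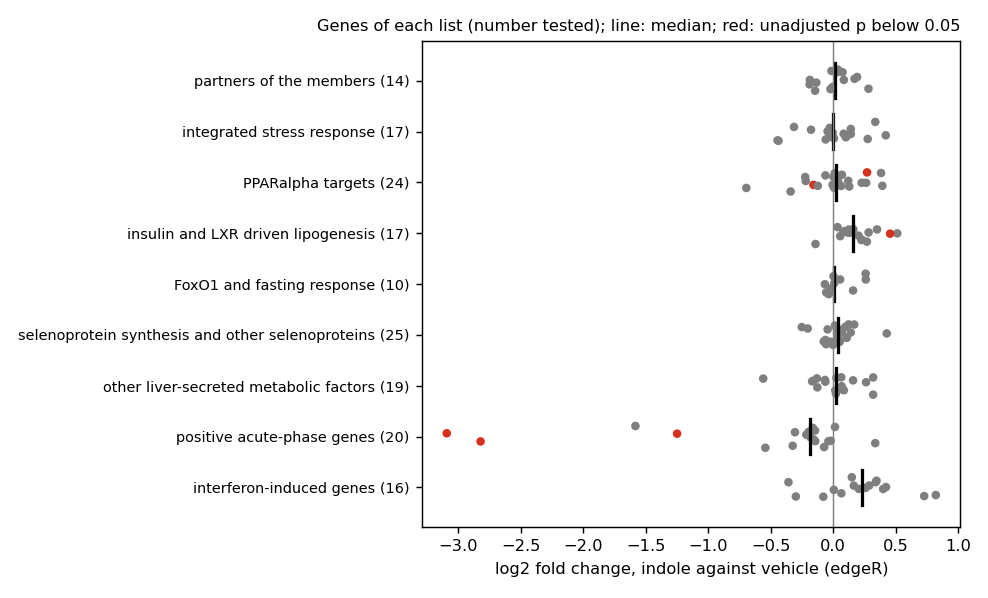
Log2 fold change of indole against vehicle (edgeR) for each tested gene of 9 lists, with the number tested in brackets, the list median as a black line and genes with an unadjusted *p* below 0.05 in red. The lists of stress, PPARα, fasting and selenoprotein genes centre close to 0, lipid synthesis lies mostly to the right (median 0.16), and *Saa1*, *Saa2* and *Socs3* lie far to the left with all 14 mice in the fit (*Saa1* −2.82, and −1.17 without G11).

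Both fetuins were abundant and had slightly lower estimates after indole. *Ahsg* (chr16:22891277-22899449, plus strand) encodes fetuin-A, the inhibitor of the insulin receptor tyrosine kinase. It ran from 5233 through a median of 6250 to 6959 CPM in vehicle-treated mice and from 4901 through 6073 to 6958 CPM in indole-treated mice. Only G2 and G12, both given indole, were under the vehicle range. The log2 fold change was −0.08 (SE 0.0896, 95% interval −0.27 to 0.11, edgeR unadjusted *p*=0.374, exact permutation *p*=0.354), and −0.08 (SE 0.0644) with the library set in the fit. The interval excluded a fold below 0.830. Its 5′ part overlaps an antisense gene, *Gm30505*, which had 132 to 711 reads per mouse against 90261 to 130494 for *Ahsg*.

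*Fetub* (chr16:22918334-22939778, plus strand), the neighbour of *Ahsg*, encodes fetuin-B, an inhibitor of the protease ovastacin that has been tied to insulin resistance. It ran from 1104 through a median of 1416 to 1530 CPM in vehicle-treated mice and from 1127 through 1330 to 1445 CPM in indole-treated mice. The 4 lowest mice were G1 to G4 (1104 to 1166 CPM), 2 of each group, and the other 10 lay between 1209 and 1530 CPM. Its log2 fold change was −0.07 (SE 0.0899, 95% interval −0.25 to 0.12, edgeR unadjusted *p*=0.471, exact permutation *p*=0.495). It was −0.06 (SE 0.0581, 95% interval −0.18 to 0.06) with the library set in the fit.

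*Selenop* (chr15:3268547-3280508, plus strand), the plasma selenium carrier, was the steadiest of the 9. It ran from 6873 through a median of 7150 to 7800 CPM in vehicle-treated mice and from 5958 through 7310 to 7748 CPM in indole-treated mice. The 2 lowest values were those of G2 and G3, both given indole and under the vehicle range, and both libraries belong to the set that stood apart. The log2 fold change was −0.03 (SE 0.0720, 95% interval −0.18 to 0.12, edgeR unadjusted *p*=0.730, exact permutation *p*=0.630). The 25 genes of selenoprotein synthesis and other selenoproteins had 17 higher and 8 lower estimates, 0 at an unadjusted *p* below 0.05, and a median log2 fold change of 0.04. *Gpx1*, the cytosolic glutathione peroxidase and most abundant of these, had medians of 2269 CPM in vehicle-treated and 2158 CPM in indole-treated mice. The 3′ end of *Selenop* overlaps *Ccdc152* on the opposite strand, which had 38 to 519 reads per mouse.

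*Lect2* (chr13:56542464-56548502, minus strand), a hepatocyte factor that binds MET and TIE1 and has been tied to insulin resistance in muscle, had the largest estimate of the 8. It ran from 82.6 through a median of 93.4 to 149 CPM in vehicle-treated mice and from 111 through 116 to 124 CPM in indole-treated mice. All 7 mice given indole exceeded the median of the vehicle group, and none exceeded its maximum, since the vehicle-treated mice G6 and G11 stood at 124 and 149 CPM. Indole against vehicle gave a log2 fold change of 0.15 (SE 0.111, 95% interval −0.08 to 0.39, edgeR unadjusted *p*=0.181, adjusted *p*=0.998), and the exact permutation test gave *p*=0.163.

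This estimate for *Lect2* depended on single libraries. Without G11, the vehicle-treated mouse with the highest *Lect2*, it was 0.26 (edgeR unadjusted *p*=0.00969), and in G1 to G4 alone, with 2 mice per group, it was 0.38 (unadjusted *p*=0.00414, adjusted *p*=0.401). In the other 10 libraries it was 0.08 (unadjusted *p*=0.582). G11 also held the highest summed level of positive acute-phase genes (31790 CPM, against 14671 to 25777 CPM in the indole group), and the part of that in its *Lect2* level was not tested. The receptor genes *Met* and *Tie1* had log2 fold changes of −0.15 (SE 0.0724, unadjusted *p*=0.0577) and 0.17 (SE 0.193, unadjusted *p*=0.390).

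The groups also differed in the spread of *Lect2*, which was noticed after its values were seen and was not tested. The coefficient of variation was 23.8% over the 7 vehicle-treated mice and 4.30% over the 7 indole-treated mice. On the log2 scale the SDs were 0.322 and 0.0617, a ratio of 5.22, and 5 of the 12653 genes tested (0.0395%) had a larger ratio. The ratios of the other 7 hepatokines lay between 0.486 (*Selenop*) and 1.604 (*Angptl4*).

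**Figure D5:**
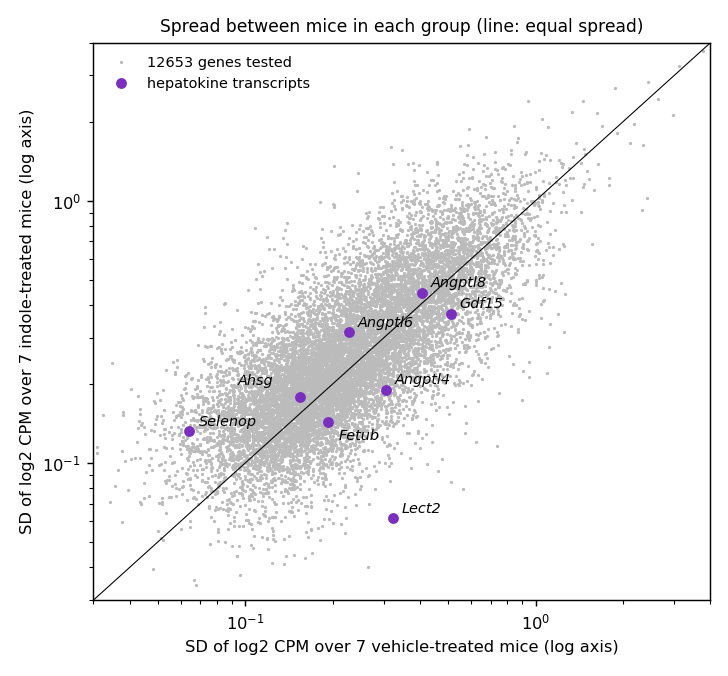
SD of log2 CPM over the 7 vehicle-treated mice (horizontal, log axis) against that over the 7 indole-treated mice (vertical, log axis) for the 12653 genes tested (grey) and the 8 hepatokine transcripts among them (purple), with the line of equal spread. *Lect2* lies far below the line (0.322 against 0.0617), and the other 7 lie in the cloud of genes around it.

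Fetuin-A is a negative acute-phase protein, which falls in inflammation, so the state of that response is given beside it. Of 20 positive acute-phase genes, 18 had a lower and 2 a higher estimate after indole, and the median log2 fold change was −0.19. Those at an unadjusted *p* below 0.05 in edgeR were *Socs3*, the feedback inhibitor of cytokine signalling (log2 fold change −1.25, SE 0.412, edgeR unadjusted *p*=0.00837), and the serum amyloid genes *Saa2* (−3.09, SE 1.11, unadjusted *p*=0.0164) and *Saa1* (−2.82, SE 1.05, unadjusted *p*=0.0194). Both serum amyloid estimates rested on the vehicle-treated mouse G11, at 2050 CPM for *Saa1* (next G13 at 480 CPM) and 1334 CPM for *Saa2* (next G13 at 248 CPM). Without G11 they were −1.17 (SE 0.729, edgeR unadjusted *p*=0.136) for *Saa1* and −1.23 (SE 0.739, unadjusted *p*=0.125) for *Saa2*, and *Socs3* was −1.22 (SE 0.441, unadjusted *p*=0.0153). The highest *Socs3* level was that of the vehicle-treated mouse G13 (11.5 CPM, next G11 at 5.32 CPM). Over the 14 fits that left out 1 mouse each, the *Socs3* estimate ran from −1.51 to −0.84 (edgeR unadjusted *p* from 0.00185 to 0.0197). With all mice the adjusted *p* of *Saa1*, *Saa2* and *Socs3* was 0.998. *Hpx*, the haem scavenger and most abundant of the list, had medians of 3557 CPM in vehicle-treated and 3240 CPM in indole-treated mice. The study named some of these genes from the same libraries, so their direction is not independent evidence. Interferon-induced genes had 13 of 16 higher and 3 lower estimates, 0 at an unadjusted *p* below 0.05 and a median of 0.23, which became −0.53 without the indole-treated mouse G8, the mouse with the highest summed level (1444 CPM, next G11 at 595 CPM). *Bst2*, the most abundant of them, ran from 86.5 to 145 CPM in vehicle-treated and from 84.0 to 226 CPM in indole-treated mice.

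Correlations across mice were computed between the hepatokine transcripts. The plan named all 14 mice. G1 to G4 stood apart in TMM factor and in 461 of 12653 genes tested. Values for the other 10 mice (5 per group) are therefore given first, a choice made after the data were seen. Group means were subtracted, and exact permutation tests ran over all 14400 orders within groups. Of the 28 pairs of hepatokines, 6 had an exact *p* below 0.05 and 0 passed adjustment over the 28 (smallest adjusted *p* 0.0953). All 6 were positive. Over all 14 mice, where the difference between the library sets enters, 7 of 28 pairs had a permutation *p* below 0.05. By *r*, 2 passed adjustment, *Ahsg* with *Fetub* (adjusted permutation *p*=0.00392) and *Fetub* with *Selenop* (0.0227), and 4 passed by rho. Among the 7, *Angptl8* had a negative *r* with *Fetub* (−0.69), *Selenop* (−0.65) and *Ahsg* (−0.61), and the others were positive. Within the 10 mice, *Ahsg* and *Fetub*, the neighbouring fetuin genes, had the highest *r*, 0.81 (rho 0.65, exact permutation *p*=0.0168 and 0.0615, adjusted *p*=0.113 and 0.193), which was 0.53 without G6 and G12, the mice farthest from the median of *Ahsg*. *Fetub* and *Lect2* had the smallest *p*, with *r* 0.61 (rho 0.78, exact permutation *p*=0.00340 and 0.00806, adjusted *p*=0.0953 and 0.193), and *r* was 0.71 without G11 and G12. Over all 14 mice, as planned, the pair *Fetub* and *Lect2* had *r* 0.50 (rho 0.64, permutation *p*=0.119 and 0.0335, adjusted *p*=0.277 and 0.0873).

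Relations with the 8 list scores, each the mean *z* score of its genes, were of the same kind: 10 of 64 had an exact permutation *p* below 0.05 and 0 passed adjustment (smallest adjusted *p* 0.191), whereas over all 14 mice 14 of 64 had a permutation *p* below 0.05, and 0 passed adjustment by *r* and 6 by rho. The 19 other liver-secreted metabolic factors tested gave the smallest *p*, with *Fetub* (*r* 0.83, rho 0.90, exact permutation *p*=0.00299 and 0.00146, adjusted *p*=0.191 and 0.0778, *r* 0.89 without G11 and G12). Over all 14 mice *Fetub* and these factors had *r* 0.71 (rho 0.81, permutation *p*=0.00613 and 0.00145, adjusted *p*=0.0785 and 0.0159). Those factors had 12 higher and 7 lower estimates after indole, 0 at an unadjusted *p* below 0.05 and a median log2 fold change of 0.02, and *Rbp4*, the retinol carrier and most abundant of them, had medians of 3612 and 3443 CPM. *Angptl6* and the lipid synthesis score had a negative *r* of −0.75 (rho −0.81, exact permutation *p*=0.0233 and 0.0179, adjusted *p*=0.291 and 0.158, *r* −0.62 without G12 and G14). With all 14 mice this *r* was −0.51 (rho −0.41, permutation *p*=0.0719 and 0.161, adjusted *p*=0.265 and 0.449). Over all 14 mice *r* with the TMM factor of the library was −0.79 for *Ahsg*, −0.85 for *Fetub*, −0.78 for *Selenop* and 0.80 for *Angptl8* after subtraction of group means, values that follow both sets of libraries and are given as a description.

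The genes whose pattern over the 14 mice was most like that of a hepatokine were found by Pearson's *r* of group-centred log2 CPM among all genes tested. For *Ahsg* they were *Serpina1b* (0.93), *Gm5436* (0.92) and *Apmap* (0.92), and for *Fetub* they were *Hddc3*, the clotting factor gene *F12* and vitronectin (*Vtn*), each at 0.94. *Fetub* itself ranked 7 for *Ahsg* among 12652 genes (*r* 0.90), and *Ahsg* ranked 20 for *Fetub*. The other pairs ranked far lower: *Selenop* was 875 for *Fetub* (*r* 0.68) and 621 for *Ahsg* (*r* 0.71), and *Lect2* was 2054 for *Fetub* (*r* 0.50). In the reverse direction *Fetub* ranked 383 and *Ahsg* 289 for *Selenop*, and *Fetub* ranked 462 for *Lect2*. Many other genes thus had a higher *r* with these hepatokines. No share of pairs over all genes is given beside the counts of pairs above. For *Selenop* they included *Sdc1* (0.88) and *Itih2* (0.87), for *Lect2* *Gstm2* (0.86), *Med21* (0.82) and *Cyb5a* (0.82), and for *Angptl4* *Pin4* (0.89), *Rnf139* (0.89) and *Mrpl55* (0.88). *Angptl6* was most like *Ecm1* (0.91), *Pam* (0.90) and *Gnb2* (0.89), *Angptl8* most like *B930025P03Rik* (0.94), *Clec2d* (0.94) and *Dync1li2* (0.93), and *Gdf15* most like *H4c9* (0.84), *Rps27rt* (0.83) and *Apba3* (0.83). *Serpina1b*, *Gstm2*, *H4c9* and *Rps27rt* have near-identical copies in the genome, so their counts are uncertain. These values include the difference between the library sets.

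Markers of other cell types were read beside the hepatokines, and their part in the values above was not tested. White adipose markers, of interest because fat also makes *Angptl4*, summed to 0.0473 to 1.54 CPM in vehicle-treated and 0.0586 to 0.655 CPM in indole-treated mice, and 0 of 6 were tested. Most of these reads were those of *Adrb3* (96 over the 14 mice), and every other gene of the list had 0 to 2 reads in all. Erythroid markers were higher after indole in 5 of 5 genes at an unadjusted *p* below 0.05 in edgeR (summed level 204 to 384 CPM with vehicle and 263 to 1092 CPM with indole). Hepatocyte markers had 7 of 10 higher, 1 of them past that threshold. Of the Kupffer cell, sinusoidal endothelium and stellate cell markers 7 of 8, 7 of 7 and 4 of 7 had a higher estimate, and of the bile duct markers 1 of 6. Past that threshold were 1 endothelial marker (higher), 1 stellate cell and 1 bile duct marker (both lower) and no Kupffer cell marker. Of the T and NK cell and the pancreatic acinar markers 1 of 7 was tested in each list, both with a higher estimate and the acinar marker past that threshold. That marker was *Cela1*, with 3178 reads in all, whereas every other acinar gene had 0 or 1 read over the 14 mice. Its estimate is thus that of 1 gene and not of the acinar list.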

How the data were processed

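Strand-specific poly(A) RNA libraries of the right liver lobe of 14 TALLYHO mice were sequenced. According to the study's methods, the authors trimmed adapters, used HISAT2 to align reads to GRCm38 and its Ensembl annotation, and deposited raw gene counts of uniquely mapped reads, without normalisation. The counting tool and its strand setting are not given in the sources used here, so reads of overlapping genes on opposite strands may be shared. Group and library name came from the sample titles, and all 14 columns were used. The titles name separate samples; that each came from its own mouse was read from the study's design.

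Counts were analysed in R 4.3.3 with edgeR 4.0.16 (TMM, filterByExpr by group, robust quasi-likelihood fit), with Benjamini–Hochberg adjustment over the 12653 genes tested. Levels are TMM-normalised CPM, and CPM/kb divides these by the gene length in the deposited table. Exact permutation tests and correlations used log2 CPM with a prior count of 2 (scipy 1.17.1). DESeq2 1.42.0, limma voom (limma 3.58.1), other scaling and filters and leaving out each mouse were the alternatives, and those on libraries G1 to G4 and on mice G8, G11 and G13 were chosen after seeing the data. The tests were run on simulated data first. The totals limit precision for genes with few reads, as for *Fgf21*.

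The hepatokines, the 18 gene lists and the rules were chosen with earlier results of these data known. Named are all hepatokines, overlapping genes, the 3 genes most like each, and, from each pathway list, the most abundant gene and those past an unadjusted *p* of 0.05. Some genes that met this rule are not reported here. Further genes were named after their values were seen: *Atf4*, *Klb*, *Gfral*, *Ret*, *Fgfr1*, *Fgfr2*, *Fgfr3*, *Fgfr4*, *Insr*, *Lpl*, *Lipc*, *Lipg*, *Met*, *Tie1*, *Cela1* and *Adrb3*. Where a listed symbol occurred in more than 1 gene, the gene with more reads was used. Motifs were searched in RefSeq promoters of GRCm38.p6. Protein sequences were not analysed here.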

Additional observations from a re-analysis of the deposited data

How the results depend on the processing

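No hepatokine passed an adjusted *p* of 0.05 under any alternative run, and in the fit of all 14 mice on treatment alone the estimates of all but *Lect2* were smaller than their SE. Leaving out each mouse in turn moved the number with an unadjusted *p* below 0.05 between 0 and 1 (*Lect2*, without G11) and the number with a higher estimate between 2 and 4. The log2 fold change then ranged from −0.24 to 0.0511 for *Gdf15*, from −0.0770 to 0.0577 for *Angptl4*, from −0.16 to 0.0694 for *Angptl8*, from −0.0476 to 0.0143 for *Selenop* and from 0.11 to 0.26 for *Lect2*, so that *Gdf15*, *Angptl4*, *Angptl8* and *Selenop* changed sign. *Ahsg* and *Fetub* stayed below 0 and *Angptl6* above 0 in these runs. With limma voom 4 were higher, *Gdf15* stood at 0.0108 and *Angptl4* at 0.0243. In libraries G1 to G4 alone, with 2 mice per group, 5 were higher and 2 had an unadjusted *p* below 0.05, at *Lect2* 0.38, *Angptl6* 0.42, *Angptl8* 0.15, *Fetub* 0.0436 and *Angptl4* 0.0354. Without these libraries *Angptl6* stood at −0.0092 and *Selenop* at 0.0273. Without G8, G11 and G13, the mice with the highest summed levels of interferon-induced, acute-phase and lipid synthesis genes, 1 had an unadjusted *p* below 0.05 (*Lect2* at 0.21, edgeR unadjusted *p*=0.0441 and adjusted *p*=0.999), and *Angptl8* stood at 0.0262. Over all genes, DESeq2 on the genes of the edgeR filter called 1 at an adjusted *p* below 0.05 and G1 to G4 alone called 2. At an unadjusted *p* below 0.05 there were 1336 genes without the filter, which tests more genes, and 1048 in G1 to G4 alone. The causes of the other shifts were not tested. Scaling by RLE or upper quartile, a fit that was not robust, a mean count filter and the library set as a term kept the direction and the call of the edgeR estimate of all 8 hepatokines. A prior count of 0.5 kept those of the permutation tests, whose difference for *Angptl4* (0.0042) is opposite in sign to its edgeR estimate. No paired analysis was possible because the groups share no replicate numbers.

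*Fgf21* and *Gdf15* had the fewest reads of the 9, at 1 to 11 and 23 to 59 per mouse. The coefficient of variation of *Gdf15* was 38.7% in vehicle-treated and 26.4% in indole-treated mice. The shares of depth and of the spread between mice in the intervals of both were not tested. The abundant transcripts are limited by the spread between mice and between the library sets. Transcript levels say nothing of the secreted protein in blood.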
